A study of Homo sapiens with 4 samples.

Results

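The genes described here are the numbered zinc finger genes of human chromosome 19. They were taken as every protein-coding gene whose symbol is ZNF followed by a number and at most 1 closing letter and whose counted exons lie on chromosome 19 of hg38. Of 63856 genes in the count table, 246 met this rule, which leaves out zinc finger genes carrying other names (ZFP, ZSCAN, ZIM and the like). The libraries came from MCF10A, a non-tumorigenic line of human breast epithelial cells, grown in DMEM/F12 with horse serum, insulin, hydrocortisone, EGF and cholera toxin. In 2 libraries (WT) the cells were unmodified, and in 2 (HSF1-pLVX) they stably overexpressed HSF1, the transcription factor that drives the heat shock response, from a pLVX lentivirus and had been selected with puromycin. The HSF1-pLVX cells were a transduced line and no library of cells carrying the empty vector was analysed here, so effects of HSF1, of transduction and of selection cannot be told apart. The study's methods call the replicates biological, while the labels only number them and do not say whether they came from separate cultures. The p-values therefore measure only spread between these libraries, taken from the trend across genes and not gene by gene. RNA was ribosome-depleted total RNA from whole cultures, in which fewer cells expressing a gene and less of its RNA per cell cannot be told apart.

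Most proteins encoded by these genes carry a row of C2H2 zinc fingers, each of which grips a few bases of DNA, behind a KRAB domain at the amino end. A KRAB domain binds TRIM28, which brings the histone methyltransferase SETDB1 and heterochromatin proteins to the bound site, and the best known targets are transposable elements. Chromosome 19 holds the large human clusters of such genes, which grew by repeated local duplication, so that neighbours are often paralogs.

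The libraries held 18688109 to 24184285 counts, and HSF1 itself rose from 200.4 and 189.2 CPM (counts scaled to a common library size with TMM normalization) in WT to 982.4 and 998.6 CPM in HSF1-pLVX, a log2 fold change of 2.35 ± 0.15 (SE; edgeR quasi-likelihood test, Benjamini-Hochberg adjusted p = 5.77e-55). All 8 epithelial markers were detected. KRT5, TP63 and ITGA6 were higher in HSF1-pLVX and KRT14, KRT17, KRT18, EPCAM and CDH1 lower, and the summed level of the list was 12930 and 12958 CPM in WT against 7135 and 7679 CPM in HSF1-pLVX. PTPRC, a marker of leukocytes, was at 0 in each library, and endothelial markers summed to 0.484 to 1.41 CPM. The 5 fibroblast markers summed to 7.40 and 10.5 CPM in WT and 14.9 and 13.9 CPM in HSF1-pLVX, with LUM and COL1A2 at or near 0. DCN was the only one called, from 1 and 3 counts in WT to 94 and 87 in HSF1-pLVX (edgeR adjusted p = 8.59e-27), and COL1A1 did not pass the test (log2 fold change 0.20 ± 0.16, SE; edgeR adjusted p = 0.287). The part of these shifts in the zinc finger results was not tested.

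Of the 246 zinc finger genes, 202 had enough counts to be tested and 44 did not. Among the 44, 18 had no count in any library, 33 had at most 3 counts in each, and the highest count of any was 20. A count of 0 still allows up to 3 counts in a library, so the 18 were not detectable at this depth rather than shown to be silent. The others of the 44 had some counts but too few to test. Those at 0 throughout included ZNF208 and ZNF99 of the centromeric cluster, ZNF135 and ZNF667 near the end of the long arm, and ZNF536, which is known from the brain. The genes that were tested were expressed at low levels. Their mean level had a median of 6.60 CPM (range 0.472 to 74.7), against 15.7 CPM over all 15830 genes tested, and per kilobase of counted length the medians were 1.27 CPM per kb for the zinc finger genes and 3.47 CPM per kb for all genes.

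HSF1-pLVX cells differed from WT in fewer zinc finger genes, and by smaller amounts, than in genes at large. At an adjusted p of at most 0.05, 41 zinc finger genes were higher in HSF1-pLVX and 48 were lower, while 113 did not pass the test. That is 44.1% of those tested, beside 65.1% of all genes (32.5% higher and 32.7% lower). At least a 2-fold difference was reached by 8 genes upward and 14 downward, 10.9% of those tested, beside 29.0% of all genes (14.9% upward and 14.0% downward). When a ratio of at least 2 in the same direction was asked of each replicate pair, on the deposited normalized values, 4 of 244 zinc finger genes passed upward (ZNF507, ZNF665, ZNF331 and ZNF581) and 6 downward (ZNF426, ZNF823, ZNF69, ZNF431, ZNF114 and ZNF470). That is 1.64% and 2.46%, beside 5.00% and 6.42% of 22321 genes. These log2-scale values do not track CPM ratios throughout. ZNF383 exceeded a ratio of 2 in CPM in each replicate pair and did not pass. The genes compared also differ in level, and the part of level in these shares was not tested. The log2 fold change had a median of -0.07 and an interquartile range of -0.46 to 0.26 in the zinc finger genes, and a median of 0.02 with a range of -0.55 to 0.62 in all genes. In 130 of the 202 genes (64.4%) it lay within 0.5 of 0, which was so for 44.3% of all genes. The median size of the change, regardless of sign, was 0.36 in the zinc finger genes and 0.58 in all genes.

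Fewer genes of any kind were called at low levels, and within each of 3 ranges of mean level the share of zinc finger genes called was below that of all genes. Below 5 CPM, 34.6% of 78 zinc finger genes were called, against 51.4% of all genes at that level. From 5 to 20 CPM the shares were 46.0% of 100 zinc finger genes and 68.6% of all genes. From 20 CPM upward they were 66.7% of 24 zinc finger genes and 73.3% of all genes. In that range 45.8% of the zinc finger genes were higher and 20.8% lower, against 32.5% and 40.7% of all genes, and levels were not alike within it, with medians of 27.9 CPM in the zinc finger genes and 56.5 CPM in all genes. Among ZNF-named genes of other chromosomes 40.9%, 45.7% and 66.7% were called in the same 3 ranges. Shares below those of all genes were thus not particular to chromosome 19. These shares are descriptions, and the differences between them were not tested.

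The libraries of the 2 groups did not overlap in 148 of the 202 genes (73.3%, beside 83.1% of all genes). The groups were apart in each of the 89 called genes, so both replicate pairs necessarily moved the same way there. The like share among all called genes was not counted. The SD of log2(CPM + 0.5) differences over the tested zinc finger genes was 0.24 within WT and 0.21 within HSF1-pLVX. Between groups, taken in each replicate pair, it was 0.57 and 0.61. The summed level of all 246 genes was 1995 and 2146 CPM in WT and 1997 and 1926 CPM in HSF1-pLVX. The sums of the groups overlapped.

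ZNF-named genes elsewhere in the genome moved about as little, and more of them were higher than lower. Of 262 such genes, 218 were tested, 65 were higher and 44 lower in HSF1-pLVX, and the median log2 fold change was 0.09. Their median level was 9.68 CPM, against 6.60 CPM in the chromosome 19 zinc finger genes. From 20 CPM upward both sets leaned upward, with 38.3% higher and 28.3% lower elsewhere and 45.8% and 20.8% on chromosome 19. In both ranges below 20 CPM, more of the chromosome 19 genes were lower and more of the others higher. Among 741 tested protein-coding genes of chromosome 19 that are not zinc finger genes of this kind, 254 were higher and 281 lower, 72.2% in all, with a median of -0.02. The median size of change regardless of sign was 0.38 in the ZNF genes of other chromosomes and 0.60 in the other genes of chromosome 19, beside the 0.36 of the chromosome 19 zinc finger genes. None of these differences between gene groups was tested.

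**Figure D1:**
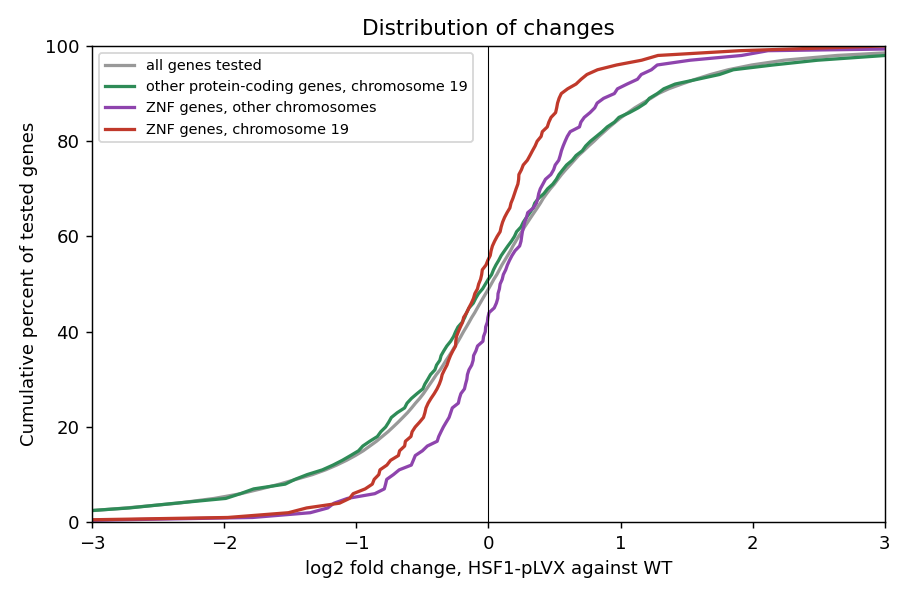
Cumulative percent of tested genes (vertical axis) at or below each log2 fold change, HSF1-pLVX against WT (horizontal axis), for all genes, other protein-coding genes of chromosome 19, ZNF genes of other chromosomes and ZNF genes of chromosome 19. The curve of the chromosome 19 zinc finger genes is steeper than that of all genes, with an interquartile range of -0.46 to 0.26 beside -0.55 to 0.62.

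Along the chromosome, 235 of the 246 genes fell into 9 clusters, counting a gap of over 1000000 bases as the end of a cluster and describing those with at least 5 genes. All coordinates are hg38. Rises and falls were interleaved in most clusters. The share of tested genes called ran from 17.4% in cluster 7 to 60% in cluster 5, beside 65.1% of all genes. Of 40 pairs of neighbouring tested genes that were both called, 20 moved in the same direction and 20 in opposite ones.

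**Figure D2:**
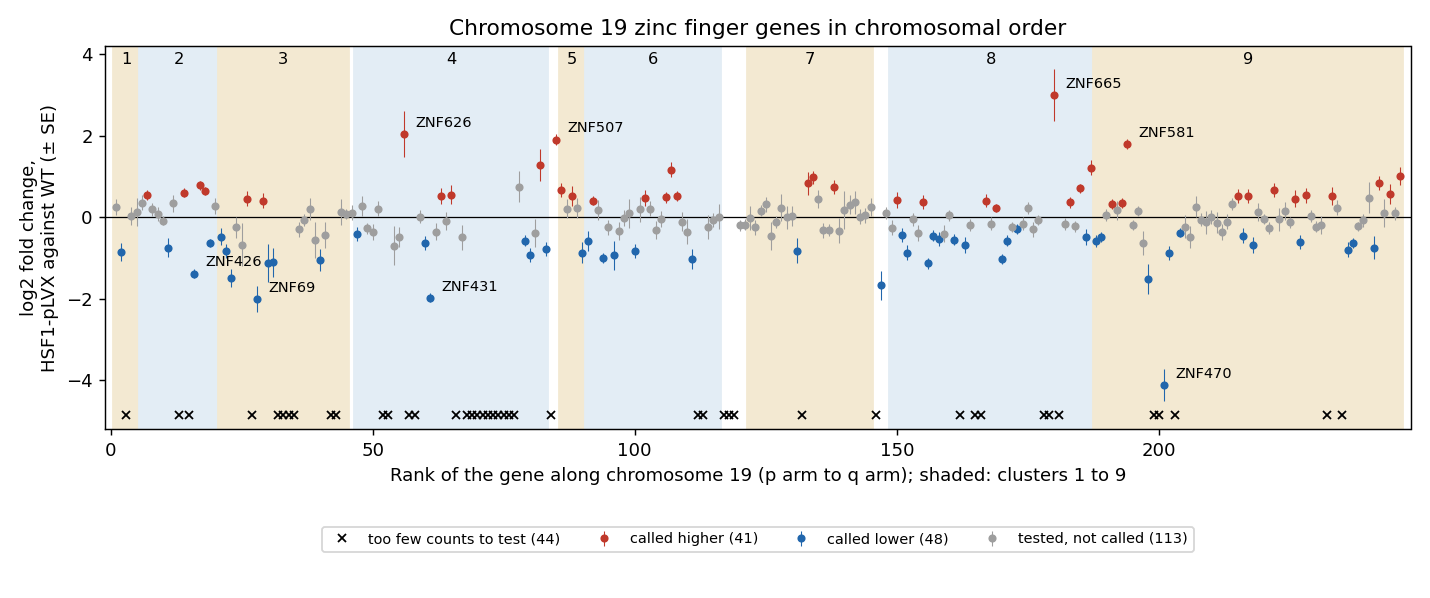
Log2 fold change (± SE, vertical axis) of each zinc finger gene against its rank from the short-arm to the long-arm end of chromosome 19 (horizontal axis), with clusters 1 to 9 shaded, 41 genes called higher in red, 48 called lower in blue, 113 not called in grey and 44 with too few counts as crosses. Red and blue points are mixed along the chromosome, the crosses are densest in cluster 4, and ZNF470 at -4.11 lies farthest from 0.

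The first 3 clusters of the short arm held no rise of 2-fold or more, and neither did clusters 5 and 7. Such rises made up 3.96% of all tested zinc finger genes and 14.9% of all genes. Cluster 1, from ZNF554 to ZNF77 (chr19:2819874-2944971), had 5 genes, of which 4 were tested and ZNF555 was lower (5.27 and 6.03 CPM in WT, 3.70 and 2.57 CPM in HSF1-pLVX). Cluster 2, from ZNF557 to ZNF846 (chr19:7069444-9793180), had 15 genes, 13 of them tested, 4 higher (ZNF358, ZNF266, ZNF121 and ZNF561) and 3 lower (ZNF699, ZNF426 and ZNF562), with a median log2 fold change of 0.26. Cluster 3, from ZNF653 to ZNF791 (chr19:11483427-12640098), had 18 tested genes. Of these 7 were lower, 5 of them at least 2-fold, and 2 were higher (ZNF440 and ZNF700). That is 50% called, beside 65.1% of all genes (32.5% higher, 32.7% lower, 14.0% at least 2-fold lower). The median of the cluster was -0.45, or -0.30 with at least 20 counts asked in 2 libraries and -0.57 with the length trend removed. The 5 other tested protein-coding genes inside cluster 3 had a median of 0.41, with 2 higher and 1 lower.

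In cluster 2 ZNF426 fell while the nearest tested genes on both sides rose. Its counts were 992 and 987 in WT and 539 and 380 in HSF1-pLVX, or 52.9 and 53.1 CPM against 21.5 and 19.1 CPM (log2 fold change -1.38 ± 0.11, SE; edgeR adjusted p = 1.79e-33). Both HSF1-pLVX libraries were far below both WT libraries. On one side ZNF266 went from 22.7 and 25.8 CPM to 37.2 and 36.4 CPM, and on the other ZNF121 went from 20.0 and 29.7 CPM to 44.1 and 39.9 CPM, with no overlap between groups in either. Past ZNF121, ZNF561 was also higher and ZNF562 lower. ZNF266 and ZNF121 were named after their values were seen, for their position beside ZNF426.

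The largest falls of cluster 3 were those of ZNF69 and ZNF823. ZNF69 had 69 and 69 counts in WT and 29 and 13 in HSF1-pLVX, a log2 fold change of -2.01 ± 0.31 (SE; edgeR adjusted p = 3.85e-10). ZNF823 was at 6.29 and 7.21 CPM in WT and 2.67 and 2.11 CPM in HSF1-pLVX (-1.48 ± 0.22). Both genes were low and clearly separated between groups, though the 2 HSF1-pLVX libraries of ZNF69 differed from each other by more than those of WT did. ZNF799, at 4.10 and 3.66 CPM in WT and 2.07 and 1.66 CPM in HSF1-pLVX, also fell, but 17.1% of the 76-base windows of its exons recur elsewhere on chromosome 19, so some of its reads could belong to a paralog.

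Cluster 4, from ZNF101 to ZNF254 (chr19:19668796-24129961), lies against the centromere and had the largest share of genes with too few counts. It held 37 genes and no other tested protein-coding gene. Of these, 15 had too few counts to be tested and 13 had none at all, among them the run ZNF208, ZNF257, ZNF676, ZNF729, ZNF98, ZNF492 and ZNF99. Among the 22 tested genes 4 were higher and 6 lower, with a median log2 fold change of -0.36. The summed level of the cluster was 224 and 279 CPM in WT and 147 and 129 CPM in HSF1-pLVX.

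ZNF431 made up most of that fall. ZNF431 (ENSG00000196705.8, chr19:21142024-21196053, plus strand), a KRAB zinc finger gene whose product has 12 finger motifs, had 1904 and 2535 counts in WT and 843 and 522 in HSF1-pLVX. In CPM it was at 119 ± 24.8 in WT and 29.9 ± 5.16 in HSF1-pLVX (SD, n = 2 each). The groups were far apart (log2 fold change -1.98 ± 0.11, SE; edgeR adjusted p = 3.31e-73). In WT it was the most abundant gene of its cluster per kilobase, at 8.42 CPM per kb, and without it the cluster summed to 122 and 142 CPM in WT and 113 and 102 CPM in HSF1-pLVX. ZNF91, whose product is known to repress SVA and LINE-1 retrotransposons in primate cells and carries 31 finger motifs, was at 20.8 and 20.0 CPM in WT and 15.1 and 12.3 CPM in HSF1-pLVX (-0.58 ± 0.13, SE; edgeR adjusted p = 3.21e-05). ZNF93, known for a like role on older LINE-1 elements, was at 6.23 and 5.01 CPM in WT and 6.69 and 6.29 CPM in HSF1-pLVX and did not pass the test (0.21 ± 0.19). ZNF91 and ZNF93 were named for these roles, after the values were known.

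Cluster 5, from ZNF302 to ZNF792 (chr19:34677639-34964049), is a small group of 5 genes, all tested, with ZNF302 and ZNF599 higher and ZNF792 lower. ZNF302 was at 6.82 and 8.07 CPM in WT and 12.4 and 11.3 CPM in HSF1-pLVX, and ZNF792 at 4.21 and 3.98 CPM against 2.31 and 2.16 CPM, with no overlap in either. Cluster 6, from ZNF565 to ZNF573 (chr19:36182060-37817300), had 24 tested genes of 26, with 5 higher and 5 lower and a median of -0.06. Its largest rise was ZNF383, from 84 and 81 counts to 238 and 206 (4.48 and 4.36 CPM against 9.48 and 10.4 CPM; 1.16 ± 0.19, SE; edgeR adjusted p = 1.43e-09). Elsewhere in the cluster ZNF260 went from 23.5 and 29.8 CPM to 13.9 and 12.5 CPM and ZNF570 from 4.85 and 4.09 CPM to 2.11 and 2.26 CPM. Rises and falls of about 2-fold thus stood in the same cluster; ZNF260 was named after its values were seen.

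ZNF383 and ZNF585B are read from opposite strands and overlap at their starts by 227 bases. Reads from the overlap could be mixed, since the strand setting of the counting is not given in the sources used here. ZNF585B was at 10.6 and 10.98 CPM in WT and 15.4 and 14.7 CPM in HSF1-pLVX (log2 fold change 0.48), so both genes of the pair were higher. Of the 4 pairs of members that start within 1000 bases of each other on opposite strands, this was the only one in which both genes were called. In the others, ZNF382 was lower beside ZNF529, ZNF790 was lower beside ZNF345, and ZNF829 was higher beside ZNF568, and the second gene of each did not pass the test.

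Cluster 7, from ZNF575 to ZNF296 (chr19:43525497-45076588), had the smallest share of tested genes called. Of 23 tested genes 3 were higher (ZNF284, ZNF224 and ZNF227) and 1 was lower (ZNF222), none reached 2-fold, and the median log2 fold change was 0.05, or -0.07 with the trend of gene length removed. The 20 tested neighbours lying between its ends included 9 that were higher and 8 that were lower. ZNF224, whose product is known as a partner of WT1 and a repressor of the aldolase A gene, was at 6.29 and 8.45 CPM in WT and 15.3 and 13.5 CPM in HSF1-pLVX (0.98 ± 0.16, SE; edgeR adjusted p = 2.88e-09). Its groups did not overlap, but 40.5% of its counted length is also covered by exons of ZNF225-AS1 on the other strand, and the strand setting of the counting is not given in the sources used here. ZNF284 rose from 31 and 33 counts to 77 and 60, with 43.9% of its length shared with an unnamed gene of the same strand (ENSG00000267022).

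Cluster 8, from ZNF175 to ZNF331 (chr19:51571298-53580269), had 39 genes and 33 tested, of which 8 were higher and 11 lower, with a median of -0.23. ZNF331, an imprinted gene at its far end, rose from 83 and 78 counts to 253 and 197, or from 4.42 and 4.198 CPM to 10.1 and 9.92 CPM (1.21 ± 0.19, SE; edgeR adjusted p = 3.14e-10). ZNF432 fell from 19.4 and 27.0 CPM to 10.9 and 9.82 CPM (-1.14 ± 0.14, SE; edgeR adjusted p = 4.14e-16). Within each of these genes all libraries of one group were above all of the other.

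Cluster 9, from ZNF628 to ZNF446 (chr19:55476332-58481230), is the largest, with 59 genes at the end of the long arm. Of 54 tested genes 12 were higher and 12 lower, and the median of -0.06 was close to 0. It held both the deepest fall of all 202 tested genes, ZNF470, and a rise of more than 3-fold, ZNF581, less than 1000000 bases apart.

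ZNF470 (ENSG00000197016.11, chr19:56567511-56588911, plus strand), a KRAB zinc finger gene encoding 17 finger motifs, was nearly lost in HSF1-pLVX. It had 78 and 85 counts in WT and 5 and 6 in HSF1-pLVX, that is 4.16 and 4.57 CPM against 0.199 and 0.302 CPM. The log2 fold change was -4.11 ± 0.39 (SE; edgeR adjusted p = 2.40e-25), and both libraries of each group lay close together. With so few counts in HSF1-pLVX, the size of the fall depends on how the model treats low counts. Its exons share no same-strand base with another gene. Of its tested or untested neighbours, ZNF583 also fell, from 1.86 and 2.37 CPM to 0.797 and 0.654 CPM, ZNF71 was lower too, and ZNF667, ZNF471 and ZNF835 had too few counts to test. ZNF583 did not meet the count minimum for named genes and was added after its values were seen.

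ZNF581 (ENSG00000171425.9, chr19:55635459-55645622, plus strand), which encodes a short protein of 197 residues with 4 finger motifs and no KRAB match, rose from 275 and 256 counts to 1160 and 1035. Its level went from 14.2 ± 0.62 CPM to 49.2 ± 4.17 CPM (SD, n = 2 each; log2 fold change 1.79 ± 0.12, SE; edgeR adjusted p = 2.50e-49). Of its counted length 23.4% is shared on the same strand with CCDC106 and ZNF580, and the overlap setting of the counting is not given in the sources used here. ZNF580 was at 22.5 and 20.1 CPM in WT and 27.5 and 26.4 CPM in HSF1-pLVX (0.34 ± 0.12, SE; edgeR adjusted p = 0.00832). The rise of ZNF580 was therefore much smaller than that of ZNF581, although the difference between them was not tested.

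Further genes of cluster 9 moved moderately. ZNF584 went from 5.81 and 5.70 CPM to 10.2 and 10.4 CPM (0.84 ± 0.18). ZNF446 rose from 3.14 and 2.64 CPM to 5.02 and 6.695 CPM (1.002 ± 0.22), with 28.8% of its length shared with ZNF324. ZNF274, known for bringing SETDB1 to the ends of other zinc finger genes, was at 20.5 and 21.96 CPM in WT and 14.3 and 12.9 CPM in HSF1-pLVX (-0.63 ± 0.13, SE; edgeR adjusted p = 4.23e-06). Both HSF1-pLVX libraries of ZNF274 were below both WT libraries, and it was named for its role after the values were known.

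**Figure D3:**
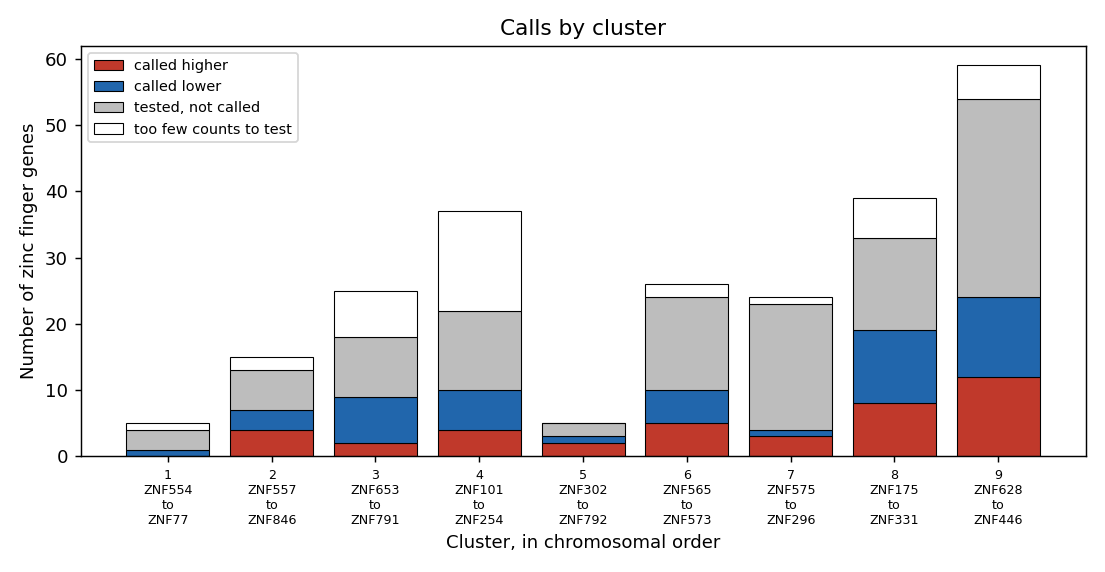
Number of zinc finger genes (vertical axis) in each of 9 clusters in chromosomal order (horizontal axis), divided into those called higher, called lower, tested but not called, and with too few counts to test. Cluster 4 has the largest untested portion, 15 of 37 genes, and cluster 9 has equal numbers higher and lower, 12 each.

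Outside the 9 clusters lay 11 genes, 6 of them tested. ZNF507 (ENSG00000168813.16, chr19:32345594-32387667, plus strand), a gene without a KRAB match that lies alone in this census, showed the largest rise among the well-counted genes. It had 128 and 127 counts in WT and 641 and 508 in HSF1-pLVX, or 6.82 and 6.83 CPM against 25.5 and 25.6 CPM (log2 fold change 1.90 ± 0.14, SE; edgeR adjusted p = 1.23e-38). Libraries of one group were nearly identical and the groups did not overlap. ZNF114 was lower (2.61 and 2.21 CPM against 0.996 and 0.503 CPM). ZNF473, whose product takes part in histone pre-mRNA processing, was at 12.8 and 12.2 CPM in WT and 13.9 and 12.9 CPM in HSF1-pLVX and did not pass the test. ZNF114 and ZNF473 were named after their values were seen.

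**Figure D4:**
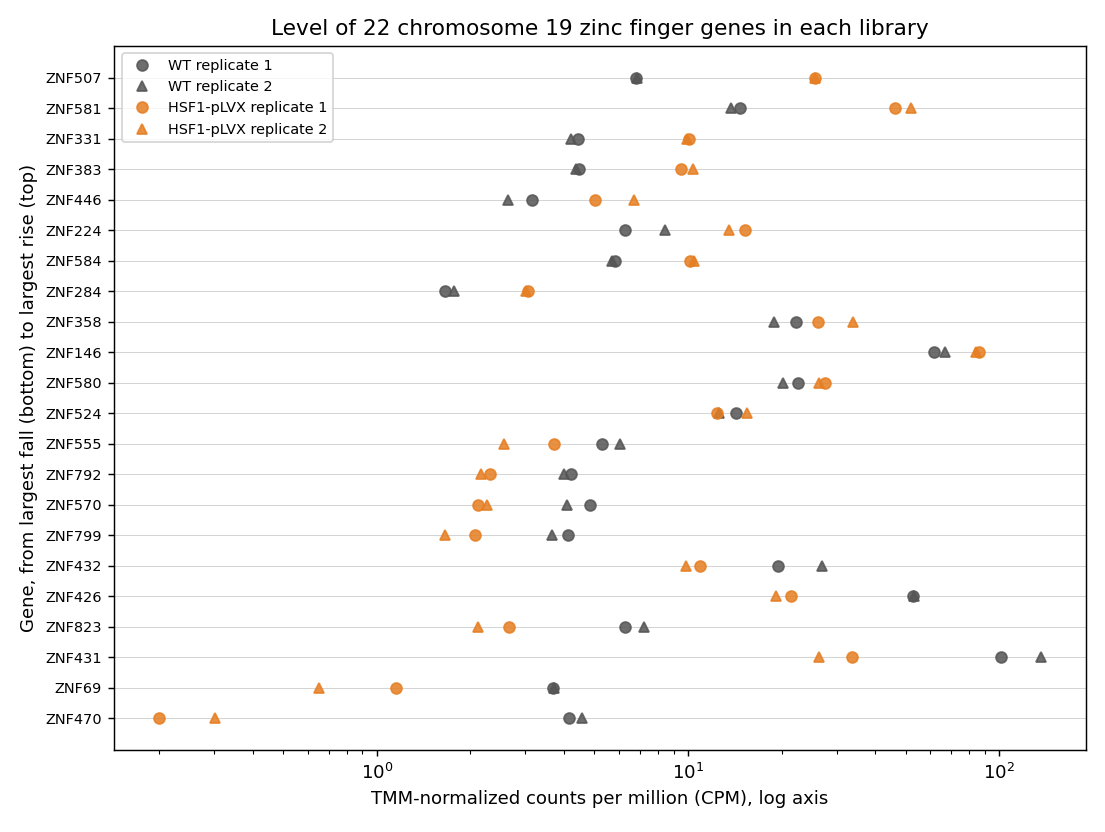
CPM (horizontal log axis) of the 22 zinc finger genes named by rule (vertical axis, ordered by log2 fold change) in each of the 4 libraries, WT in grey and HSF1-pLVX in orange, replicate 1 as circles and replicate 2 as triangles. Orange and grey symbols are apart in every gene except ZNF524, and the gap is widest for ZNF470. The genes other than ZNF524 were all called, and the groups were apart in each of the 89 called zinc finger genes.

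The largest fitted rises came from genes with almost no counts in WT and were therefore kept apart. ZNF665 had 4 and 0 counts in WT and 28 and 13 in HSF1-pLVX (edgeR adjusted p = 9.13e-06), and ZNF626 had 2 and 6 against 23 and 17 (edgeR adjusted p = 0.000510). Both were called higher, but sizes resting on so few counts depend on how the model treats low counts. ZNF470 was the only other tested gene with a group under 10 counts in each library, and the size of its fall carries the same limit. ZNF665 and ZNF626 did not meet the count minimum for named genes and were named after their values were seen.

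Of the 5 zinc finger genes that were most abundant per kilobase, 4 were higher in HSF1-pLVX and ZNF524 did not pass the test. Of all genes tested, 32.5% were higher. The ranking used the HSF1-pLVX libraries too, so a rise lifted the rank of a gene and the count of 4 is partly set by the ranking. ZNF317, ranked next, was at 9.11 CPM per kb in WT and 8.57 in HSF1-pLVX and did not pass the test. Over all libraries ZNF581 averaged 18.25 CPM per kb and ZNF146, which encodes a short protein made almost only of fingers, 18.0 CPM per kb. ZNF358 averaged 12.2, ZNF524 10.1 and ZNF580 8.97 CPM per kb. ZNF146 was at 61.6 and 66.8 CPM in WT and 86.2 and 84.1 CPM in HSF1-pLVX (0.41 ± 0.10, SE; edgeR adjusted p = 0.000159), and ZNF358 at 22.2 and 18.8 CPM against 26.1 and 33.9 CPM (0.54 ± 0.12). ZNF524 did not pass the test, with 14.2 and 12.5 CPM in WT overlapping 12.4 and 15.5 CPM in HSF1-pLVX (0.05 ± 0.14; edgeR adjusted p = 0.762). These levels are per length over all libraries and say nothing of protein.

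Rises and falls were found at like shares whatever the KRAB domain, and features of the proteins followed the change weakly at most. Translated from the annotated coding sequence, the 246 proteins were 170 to 1346 residues long and had 1 to 36 C2H2 finger motifs, with a median of 12, the most in ZNF208. A KRAB-like sequence was found in 199 of them. Of 161 tested genes with a KRAB-like match 32 were higher and 39 lower, with a median log2 fold change of -0.09, and of 41 without one 9 were higher and 9 lower, with a median of 0.05. Across the 202 tested genes, which are not independent replicates and share their libraries, Spearman's rho between log2 fold change and the number of finger motifs was -0.08. With GC content of the exons it was 0.11, with counted length 0.05 and with mean level 0.08.

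Because the genes are paralogs, shared sequence could mix their counts. More than 20% of counted length was shared with another gene of the same strand in 17 of the 246 genes, 5 of which were called (ZNF358, ZNF763, ZNF284, ZNF581 and ZNF446). More than 10% of 76-base windows recurred elsewhere on chromosome 19 in 11 genes, at most 35.1% (ZNF98), and 3 of these were called (ZNF799, ZNF585B and ZNF324B). The other called genes were under both of these limits. The limits do not cover repeats on other chromosomes or overlap with genes of the opposite strand. Such overlap was 18.9% of counted length in ZNF562, which was called.

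HSF1 binds as a trimer to repeats of the unit GAA in alternating orientation, so the promoters were searched for such pairs and triplets. RefSeq promoter windows of GRCh38.p14, from 250 bases before to 50 after an annotated start, were matched by symbol for 216 of the 246 genes, with 268 windows in all. The pair GAANNTTC occurred in 7.84% of these windows and in 6.77% of all 35116 promoter windows. The pair TTCNNGAA occurred in 7.46% and 7.74%. Both pairs read the same on either strand. One or the other was found in 14.6% of the zinc finger windows and 13.5% of all windows, so the zinc finger promoters held them at about the general share.

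Zinc finger genes with a pair in a window were called more often than those without, in both directions. Of 38 genes with a pair, 31 were tested, 9 were higher and 12 lower, 67.7% in all, with a median log2 fold change of -0.02. Of 178 genes with none, 149 were tested, 30 were higher and 30 lower, 40.3% in all, with a median of -0.07. The median mean levels of these groups were 6.06 and 6.81 CPM. Over all tested genes matched to a promoter window the shares were 67.6% of 1524 genes with a pair and 67.6% of 9446 without, so the difference seen among the zinc finger genes was not present at large. It rests on 31 genes and was not tested, and a gene with more windows had more chances to hold a pair. The triplet made by extending TTCNNGAA with NNTTC, which contains both pairs and whose reverse complement was searched as well, was found in ZNF83 alone (0.373% of zinc finger windows against 0.490% of all). A match in these letters is a description of the sequence and not a site bound by HSF1, and windows without one may hold other forms of the element.

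The windows of 4 genes are shown, 5′ to 3′ along the gene, with the pairs or triplet in capitals: ZNF470 as the deepest fall, ZNF507 as the largest rise among well-counted genes, ZNF331 as a rise with a pair, and ZNF83 as the only triplet.
ZNF470, chr19:56567218-56567517, plus strand: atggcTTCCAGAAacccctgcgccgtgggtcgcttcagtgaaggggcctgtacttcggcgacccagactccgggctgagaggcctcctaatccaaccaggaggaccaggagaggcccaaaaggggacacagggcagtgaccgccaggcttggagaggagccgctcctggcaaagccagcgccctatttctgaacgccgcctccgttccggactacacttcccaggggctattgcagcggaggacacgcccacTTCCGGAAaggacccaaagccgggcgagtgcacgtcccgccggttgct
ZNF507, chr19:32345360-32345659, plus strand: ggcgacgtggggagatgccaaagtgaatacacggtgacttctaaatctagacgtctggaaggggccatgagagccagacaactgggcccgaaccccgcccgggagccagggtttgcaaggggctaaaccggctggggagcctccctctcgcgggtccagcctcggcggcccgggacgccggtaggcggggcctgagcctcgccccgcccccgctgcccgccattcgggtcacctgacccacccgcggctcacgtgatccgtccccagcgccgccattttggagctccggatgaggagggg
ZNF331, chr19:53520764-53521063, plus strand: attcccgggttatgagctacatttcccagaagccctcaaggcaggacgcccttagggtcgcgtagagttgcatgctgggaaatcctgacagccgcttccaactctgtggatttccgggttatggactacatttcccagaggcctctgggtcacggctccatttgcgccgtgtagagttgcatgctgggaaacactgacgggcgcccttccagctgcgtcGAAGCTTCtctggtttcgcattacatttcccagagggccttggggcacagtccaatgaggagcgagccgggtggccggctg
ZNF83, chr19:52690447-52690746, minus strand: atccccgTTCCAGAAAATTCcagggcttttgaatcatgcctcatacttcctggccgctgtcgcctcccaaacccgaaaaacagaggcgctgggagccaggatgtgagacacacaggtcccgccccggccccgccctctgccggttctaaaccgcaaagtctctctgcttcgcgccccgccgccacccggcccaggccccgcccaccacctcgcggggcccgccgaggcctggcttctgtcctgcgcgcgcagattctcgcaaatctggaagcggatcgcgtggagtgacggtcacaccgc

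The ZNF470 window held 2 pairs and that gene fell by 4.11 on the log2 scale, while the ZNF507 window held none and that gene rose by 1.90. ZNF331, with 1 pair in the window shown, rose by 1.21. The other windows of ZNF331 and ZNF83 held neither a pair nor a triplet. ZNF83, with the triplet, was at 47.9 and 56.9 CPM in WT and 60.4 and 61.9 CPM in HSF1-pLVX, a log2 fold change of 0.23 ± 0.10 (SE; edgeR adjusted p = 0.0418). Its groups did not overlap, but it was among the called genes nearest the threshold, together with ZNF599 (adjusted p = 0.0469 by edgeR) and ZNF586 (adjusted p = 0.0496 by edgeR). Just outside stood ZNF582 at 0.0566, ZNF226 at 0.0573 and ZNF419 at 0.0615 by the same test.

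In a list of genes linked to silencing by KRAB zinc finger proteins, more were higher than lower in HSF1-pLVX. The list was drawn up with results of these data known, so its balance is a description only. Of its 21 genes, 20 were tested, 11 were higher and 4 lower, with a median log2 fold change of 0.34. Of all genes, 32.5% were higher and 32.7% lower, with a median of 0.02. TRIM28, the corepressor that KRAB binds, was at 221 and 194 CPM in WT and 270 and 289 CPM in HSF1-pLVX (0.43 ± 0.12, SE; edgeR adjusted p = 0.000617). SETDB1 was at 23.5 and 23.6 CPM against 41.5 and 47.1 CPM (0.91 ± 0.11, SE; edgeR adjusted p = 5.07e-15). In both genes the groups did not overlap, the WT libraries being lower.

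Members with other roles in the same pathway moved in both directions. Among the heterochromatin proteins HP1, CBX3 (0.73) and CBX5 (0.80) were higher and CBX1 (-0.47) lower on the log2 scale. Of the DNA methylation factors, DNMT1 (1.24) and UHRF1 (1.66) were higher, and so were the histone methyltransferases SUV39H1 (1.19) and SUV39H2 (1.005). TASOR (0.41), a subunit of the HUSH complex listed as FAM208A in older annotation, HDAC1 (0.36) and SMARCAD1 (0.33) were also higher. CHD3 (-0.46), HDAC2 (-0.26) and ATRX (-0.44) were lower. ATF7IP, CHD4, MPHOSPH8, PPHLN1 and MORC2 did not pass the test, and ZFP57, an imprinting KRAB protein, had no counts.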

How the data were processed

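The authors sequenced ribosome-depleted total RNA as paired 76-base reads, aligned them to hg38 with HISAT2 2.0.5 and counted them per gene with featureCounts 1.6.5. The deposited counts (GENCODE 26 gene IDs, whole numbers, not normalized) were used. The authors also deposited a table of log2-scale values normalized with DESeq2 1.32.0, which served only as an alternative (the study's rule, by which both replicates must pass a ratio of 2 or its inverse). How strand, overlap and multiple mapping were treated is not given in the sources used here. Gene types and symbols came from GENCODE 44 (ZNF875 is HKR1 in older lists).

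Counts were filtered with filterByExpr (15830 genes kept), TMM-scaled and tested with edgeR 4.0.16 quasi-likelihood models (R 4.3.3) and a block for the replicate number, since ratios in the study were formed within replicate numbers; p-values were adjusted by Benjamini-Hochberg over all genes tested. With this block the model had 1 residual degree of freedom and took its spread wholly from the trend across genes. The SE and p-value of a gene thus do not use its own spread between libraries. With no block the edgeR adjusted p was 1.43e-08 for ZNF431, 1.02e-07 for ZNF470 and 4.37e-09 for ZNF507. The summed level of the leukocyte markers is not reported here. The members, lists and tests were chosen with earlier results of these data known. Named genes were the 8 largest rises and 8 largest falls among called genes with at least 50 counts in each library of the higher group, any with at most 3 counts in one group and at least 50 in the other (0 found), the 5 most abundant per kb, and the largest change of each cluster. An exact permutation test of 2 against 2 libraries cannot go below p = 0.333 (two-sided), so none is given. Counts of 18688109 to 24184285 per library set the precision: the median SE of a log2 fold change was 0.19, and libraries of a group differed by more than sampling noise (chi-square per degree of freedom 7.34 in WT and 9.02 in HSF1-pLVX). Alternatives were other scaling (DESeq2 size factors, library size), other filters, DESeq2 1.42.0, limma-voom 3.58.1, removal of length and GC trends, no block, and leaving out each library.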

Additional observations from a re-analysis of the deposited data

How the results depend on the processing

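Counts of called genes changed with the tool, the libraries and the scaling. Against 41 higher and 48 lower, DESeq2 with the block called 17 and 23, beside 21.0% and 23.6% of all genes. All 17 and 23 were shared with the edgeR calls in the same direction, and 5 rather than 8 were at least 2-fold higher. Leaving out 1 library at a time, in fits without the block where the lone library was assumed to vary like the others, gave 24 to 38 higher and 29 to 47 lower (24 and 29 without HSF1-pLVX replicate 2, and 26 higher without HSF1-pLVX replicate 1), 8 to 9 at least 2-fold higher, 10 to 16 at least 2-fold lower, and a median log2 fold change of -0.15 to -0.01. The study's ratio rule on the deposited log2 values found 4 at least 2-fold higher and 6 lower, and scaling by library size alone 9 at least 2-fold lower. Removing the trend with gene length moved the split to 29 higher and 63 lower, beside 31.7% and 32.4% of all genes. Of the main calls, 28 of the 41 and 38 of the 48 genes held under each scaling and trend setting.

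The fit with no replicate block called 40 higher and 50 lower, 39 and 47 of them shared, with 8 and 14 at least 2-fold. Of all genes that fit called 32.7% higher and 33.2% lower. Same-numbered libraries were not seen to deviate together (correlation of deviations -0.02 over the zinc finger genes and -0.11 over 9672 genes above 8 CPM). The data thus do not show that the numbers pair the samples. The crossed block, chosen after seeing the data, called 43 higher and 55 lower, beside 34.3% and 34.7% of all genes. With a gap of 500000 or 2000000 bases there were 10 or 6 clusters in place of 9. Among the 22 named genes only ZNF524 turned direction (-0.10 to 0.21 leaving out 1 library), to -0.03 without WT replicate 2 and -0.10 without HSF1-pLVX replicate 2, and ZNF555, ZNF358, ZNF799, ZNF792, ZNF284 and ZNF580 fell short of the threshold in 10 of 308 values over 14 settings: without HSF1-pLVX replicate 2 the edgeR adjusted p was 0.0749 for ZNF555 and 0.113 for ZNF358, ZNF580 gave 0.0559 to 0.0713 without WT replicate 2 or either HSF1-pLVX library, and DESeq2 gave 0.0555 to 0.204 for ZNF555, ZNF799, ZNF792, ZNF284 and ZNF580. Cluster medians moved by more than the replicate spread in 15 of 126 values, and those of clusters 1, 6 and 7 crossed 0 when 1 library was left out. With a median SE of 0.19 and 2 libraries a group, small changes of low genes were not detectable at this depth. The cause of these changes was not tested.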
